A study of Mus musculus with 2 samples.

Results

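The genes described are those that make, load, take up and break down the inhibitory transmitter GABA, and those of its metabotropic receptor. They are *Gad1*, *Gad2*, *Slc32a1*, *Slc6a11*, *Slc6a13*, *Abat*, *Aldh5a1*, *Gabbr1* and *Gabbr2*, 9 of the 32285 genes in the count tables, taken by symbol, and each symbol was found once in both tables. The data are single-cell RNA counts from the striatum of untreated adult mice, made to look at heterogeneity among astrocytes of 1 brain region. Files of 2 libraries were used, replicates 1 and 2 of 1 group, so nothing was treated and the comparisons are between kinds of cell. The labels give an age of 8 to 10 weeks and the treatment as none, and name the strain as C57/Bl6J in one field and C57BL/6NTac in the protocol. The labels call the cells glia enriched, and the tissue was digested with pronase and freed of debris and myelin, so the shares of cells are those that survived these steps. Nothing in the labels says from which or how many mice each library came. The p-values therefore concern at most how far differences between kinds of cell vary between these libraries, which may be technical. The fits borrow part of this spread across genes.

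GABA is formed from glutamate by glutamate decarboxylase, of which *Gad1* encodes the larger and *Gad2* the smaller form. The vesicular transporter VGAT, encoded by *Slc32a1*, loads it into synaptic vesicles. After release it is cleared by membrane carriers, among them GAT3 (*Slc6a11*), known as a carrier of astrocytes, and GAT2 (*Slc6a13*), known from the meninges and from liver and kidney. GABA transaminase (*Abat*) and succinic semialdehyde dehydrogenase (*Aldh5a1*) then turn it into succinate in mitochondria. *Gabbr1* and *Gabbr2* encode the subunits of the GABA-B receptor, which acts through G proteins and works on the cell surface as a heterodimer. In the striatum the principal projection neurons and many of the interneurons around them use GABA.

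The stretch before the RefSeq transcription start is shown for the 5 genes of synthesis, vesicle loading and uptake, so that the sequence can be set beside the levels given later. RefSeq windows on GRCm38.p6 were given for 8 of the 9 genes and span 250 bases before the start. *Slc6a13* has several RefSeq starts, of which the first is shown. Each line ends before the first base that the annotation counts as untranslated region, and capitals mark letters that matched a searched motif on either strand. All 5 lie on the plus strand, at chr2:70561879-70562041 for *Gad1*, chr2:22622077-22622204 for *Gad2*, chr2:158610508-158610757 for *Slc32a1*, chr6:114130991-114131240 for *Slc6a11* and chr6:121300038-121300226 for *Slc6a13*.
Gad1: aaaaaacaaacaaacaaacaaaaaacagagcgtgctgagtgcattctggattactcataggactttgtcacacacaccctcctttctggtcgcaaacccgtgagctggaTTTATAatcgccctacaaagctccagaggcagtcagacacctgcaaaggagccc
Gad2: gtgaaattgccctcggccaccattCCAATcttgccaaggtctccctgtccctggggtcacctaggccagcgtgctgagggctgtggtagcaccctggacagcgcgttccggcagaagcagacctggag
Slc32a1: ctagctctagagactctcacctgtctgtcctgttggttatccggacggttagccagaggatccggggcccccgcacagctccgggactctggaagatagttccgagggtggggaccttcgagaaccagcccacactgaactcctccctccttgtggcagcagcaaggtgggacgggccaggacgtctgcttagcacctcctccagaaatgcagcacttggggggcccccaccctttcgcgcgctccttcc
Slc6a11: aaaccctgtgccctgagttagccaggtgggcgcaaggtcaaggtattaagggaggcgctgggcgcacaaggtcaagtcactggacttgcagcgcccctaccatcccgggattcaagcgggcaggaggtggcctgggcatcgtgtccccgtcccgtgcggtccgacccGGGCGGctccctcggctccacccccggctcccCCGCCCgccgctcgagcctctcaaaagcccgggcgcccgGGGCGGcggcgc
Slc6a13: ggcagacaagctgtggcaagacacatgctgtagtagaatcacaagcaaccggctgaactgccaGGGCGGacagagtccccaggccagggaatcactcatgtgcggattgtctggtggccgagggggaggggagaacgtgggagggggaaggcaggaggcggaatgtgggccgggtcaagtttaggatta
The motifs were the homeodomain core TAATTA, found on either strand in 4.84% of 32851 windows of this length, TATAAA in 12.4%, CCAAT in 33.8%, GGGCGG in 32.7% and CACGTG in 6.02%. *Gad1* held TATAAA on the reverse strand 141 bases before the start and GGGCGG on the same strand 8 bases before it, the latter outside the line shown, and *Gad2* held CCAAT 226 bases before it. *Slc6a11* held GGGCGG at 83, 51 and 12 bases before the start, the second on the reverse strand, and *Slc6a13* held it at 187 and 50, the latter outside the line shown. No searched motif lay in the window of *Slc32a1*, and an antisense transcript, *Gm14204*, overlaps it on the minus strand. The windows of *Slc6a11* and *Gabbr2* were 71.2% and 80.8% G and C with 25 and 37 CpG sites, against medians of 52.4% and 6.0 over all windows. These matches describe letters only. No motif could be shared by all of *Gad1*, *Gad2*, *Slc32a1* and *Gabbr1*, the genes highest in neuron-like cells, since *Slc32a1* held none. GGGCGG lay in the windows of both *Gad1* and *Gabbr1*. It also lay in those of *Slc6a11* and *Gabbr2*, both highest in astrocyte-like cells.

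Library 1 held 6978 barcodes and 44597660 unique molecular identifiers (UMIs, which count each captured mRNA molecule once), and library 2 held 5437 barcodes and 37982720 UMIs. The libraries share 9 barcode sequences. After filters 12023 cells were clustered without the 9 genes and without other genes of the pathway, and 10 classes of at least 20 cells in each library were named from their markers. The largest were astrocyte-like (1328 and 976 cells in libraries 1 and 2), microglia-like (1126 and 1024), oligodendrocyte-like (744 and 936), neuroblast-like (1172 and 495) and endothelial-like cells (807 and 599). Neuron-like cells (390 and 262), oligodendrocyte precursor (OPC)-like cells (302 and 342), mural-like cells of the vessel wall (279 and 221), macrophage-like cells (93 and 76) and fibroblast-like cells (34 and 22) were fewer. Every marker of a class's list was raised in it, and the neuroblast-like class also took in progenitor-like and ependymal-like cells. An erythroid-like cluster and an unnamed cluster with a median of 20.3% and 28.1% mitochondrial UMIs were left out of the comparisons. Median depth ran from 1727.5 UMIs per astrocyte-like cell to 16396 per oligodendrocyte-like cell in library 1, so levels are given as UMIs per 1000000 UMIs of a class (CPM), with exact Poisson 95% intervals. Shares of cells are given after thinning each cell to 1000 UMIs. Intervals cover counting error only. Free RNA in droplets puts UMIs into cells that do not express a gene, and microglia-like cells, of a type not known for making or loading GABA, serve as the background. Thinning kept 274 and 208 neuron-like, 1026 and 410 neuroblast-like, 972 and 874 astrocyte-like, 290 and 334 OPC-like and 1026 and 967 microglia-like cells, whose medians before thinning, all cells taken, were 2418.5 and 2619.5, 3388.5 and 4171, 1727.5 and 2791, 6974.5 and 7240, and 6929 and 5502 UMIs.

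**Figure D1:**
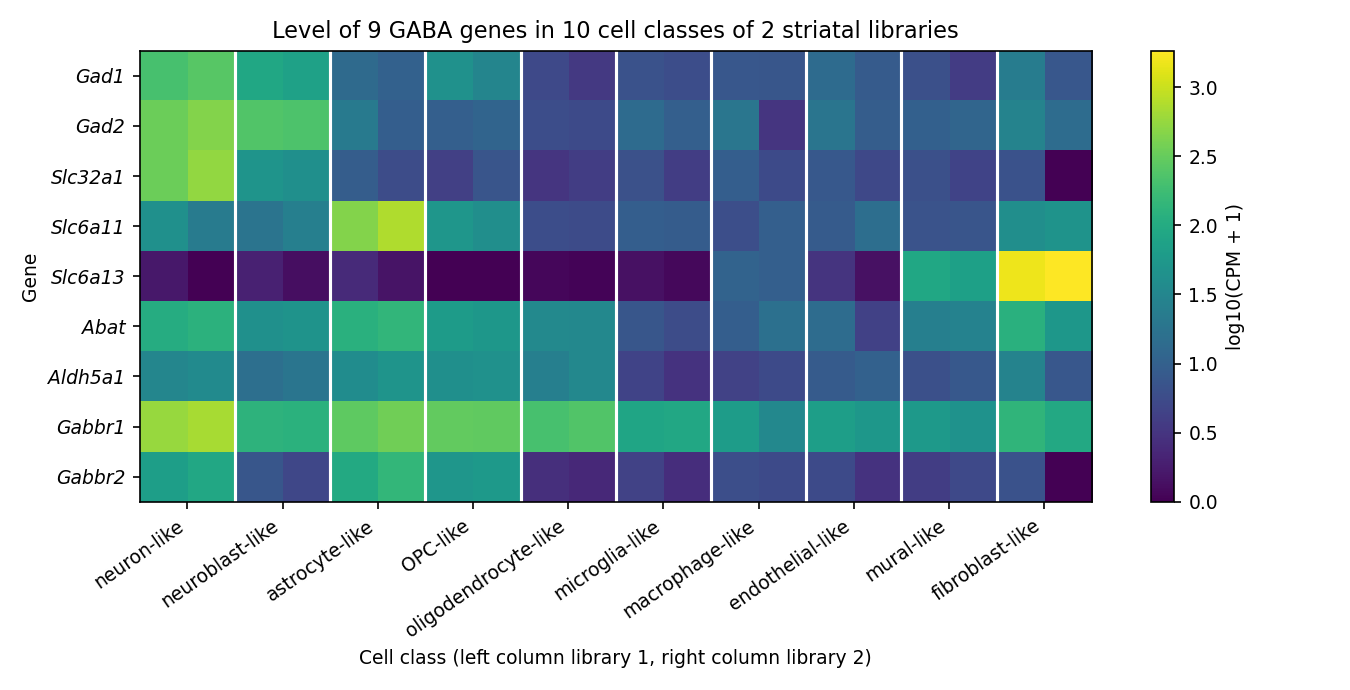
Level of each of the 9 genes in each of the 10 classes, as log10 of CPM plus 1 in color, with library 1 in the left and library 2 in the right column of each class. *Gad1*, *Gad2* and *Slc32a1* are brightest in neuron-like cells, *Slc6a11* in astrocyte-like cells (458 and 743 CPM) and *Slc6a13* in fibroblast-like cells (1513 and 1829 CPM), while *Abat*, *Aldh5a1* and *Gabbr1* are spread over many classes.

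Counts summed per library and class were fitted with the quasi-likelihood model of edgeR over 15214 genes, with the library as a block, and each class was set against the mean of the other classes on the log2 scale. Every adjusted p below is from such a fit, corrected by Benjamini and Hochberg's method over all genes tested. Of the 90 contrasts of the 9 genes, 25 were higher, against 25.5% of contrasts over all genes, and 28 were lower, against 17.4%. The share of higher calls was near that of any gene, and the calls are described by where they fell. Neuron-like cells held 7 of the 9 as higher (background 26.4%), and astrocyte-like cells (26.7%) and OPC-like cells (26.1%) 5 each. Neuroblast-like cells held 3 (32%), oligodendrocyte-like cells 2 (35.4%), and fibroblast-like (7.4%), mural-like (22.2%) and macrophage-like cells (17.5%) 1 each, which was *Slc6a13* every time. Microglia-like and endothelial-like cells held none as higher, against 34.5% and 26.5% over all genes, and 5 each as lower, against 18.8% and 15.8%. Lower calls numbered 6 in mural-like cells (background 13.2%), 5 in oligodendrocyte-like cells (19.2%), 4 in macrophage-like cells (12.3%) and 3 in OPC-like cells (18.4%), 1 of the latter being *Slc6a13* at 0 UMIs, and there were none in neuron-like (26.4%), astrocyte-like (22.4%), neuroblast-like (23.4%) and fibroblast-like cells (4.06%). Classes next to each other in the order of a gene's mean level differed in 18 of 81 pairs. Many neighbours in each order below could therefore not be separated. Over all genes, 41.7% of contrasts in the same pairs of classes passed. Those pairs were chosen as neighbours for the 9 genes and not for each gene, so the shares cannot be compared.

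**Figure D2:**
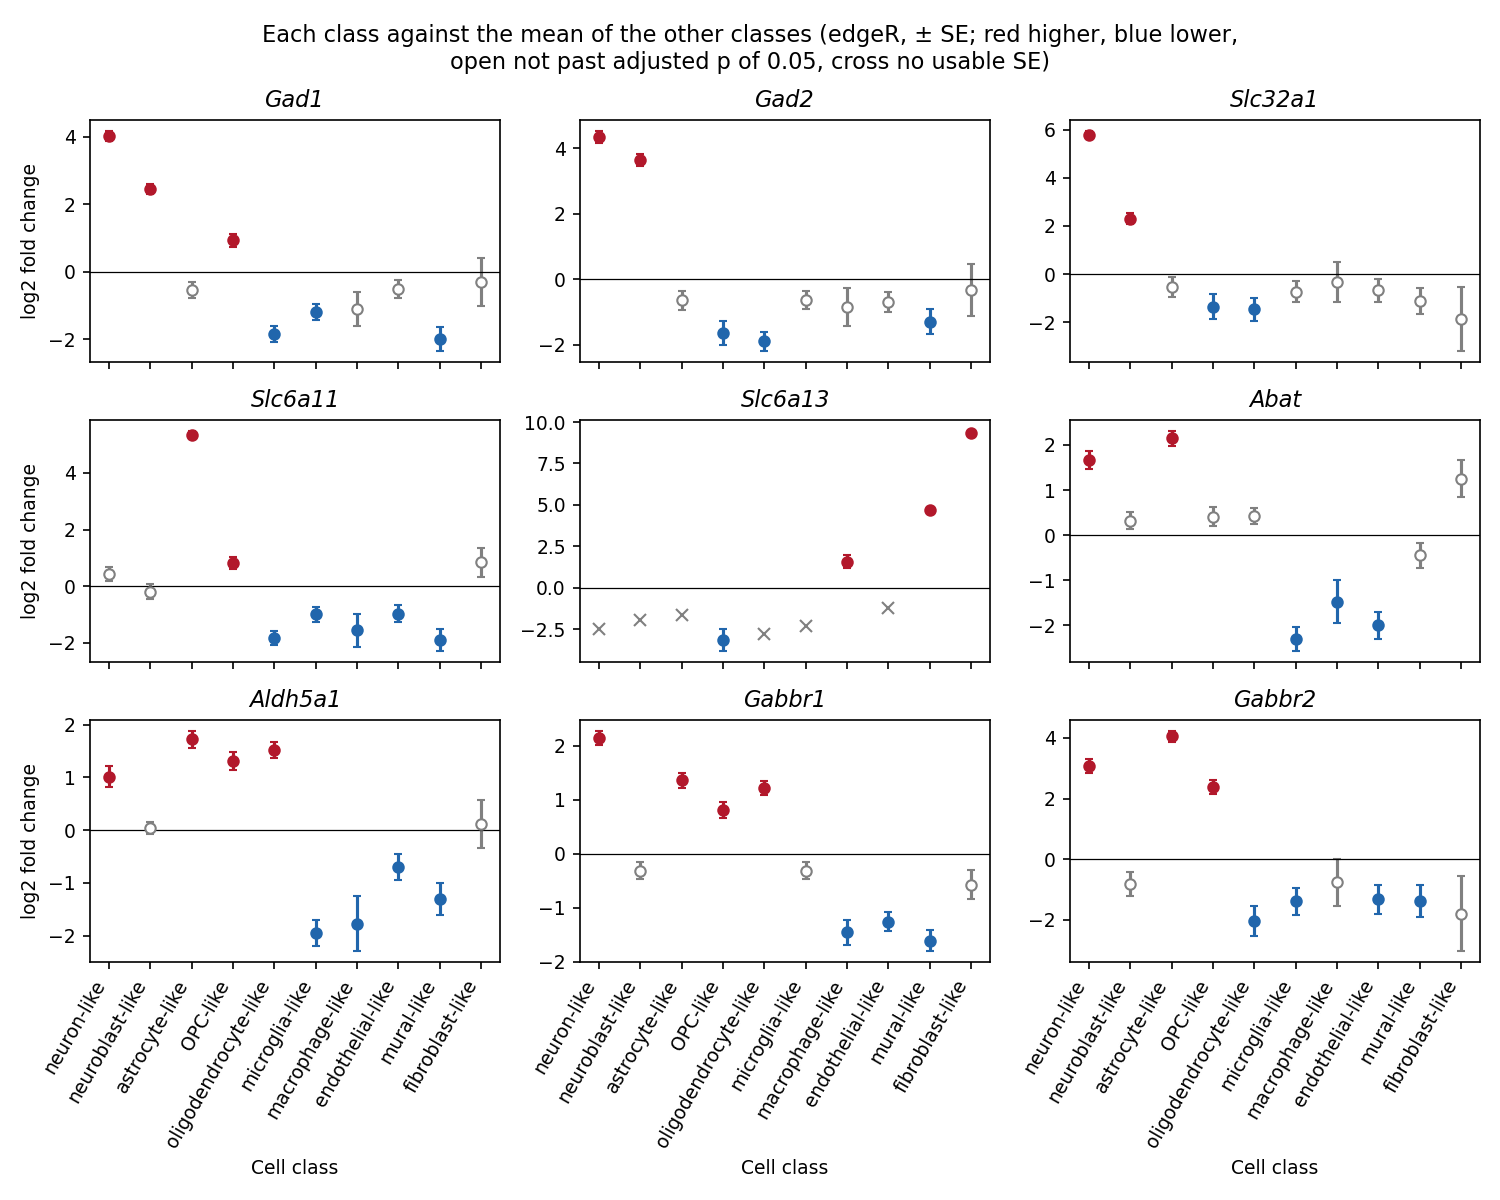
Log2 difference of each class from the mean of the other classes for each gene, with standard error, from edgeR on 2 libraries. Red points were higher and blue points lower at an adjusted p of 0.05, open points did not pass, and crosses mark *Slc6a13* values without a usable standard error; *Slc6a13* reaches 9.31 in fibroblast-like cells and *Slc32a1* 5.78 in neuron-like cells.

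The decarboxylases were highest in neuron-like cells and next in neuroblast-like cells. *Gad1* (ENSMUSG00000070880, chromosome 2, 70553072 to 70602014, plus strand of GRCm38, as all positions here) stood at 202 (180.2–225) CPM in library 1 and 260.0 (233–289.8) CPM in library 2 in neuron-like cells, and the intervals of the libraries did not overlap. In neuroblast-like cells it was 85.7 (79.0–92.7) and 72.4 (63.1–82.6) CPM, with overlapping intervals. *Gad1* was higher in neuron-like cells by 4.04 ± 0.15 log2 units (SE, adjusted p = 1.01e-13 by edgeR) and in neuroblast-like cells by 2.45 ± 0.15. *Gad2* (ENSMUSG00000026787, chromosome 2, 22622205 to 22693874, plus strand) stood at 341 (313–371) CPM in library 1 and 449.9 (413–489) CPM in library 2 in neuron-like cells and at 241 (229–252) and 226 (209.7–244) CPM in neuroblast-like cells. The log2 differences of *Gad2* were 4.35 ± 0.18 and 3.63 ± 0.18. Between neuron-like and neuroblast-like cells *Gad1* differed more (1.43 ± 0.20, adjusted p = 6.87e-06) than *Gad2* (0.65 ± 0.25, adjusted p = 0.0398, both by edgeR), but the difference between the genes was not tested. At 1000 UMIs, *Gad2* was found in 21.9% and 30.3% (unthinned 39.5% and 46.6%) of neuron-like and 26.3% and 22.9% (unthinned 51.0% and 46.7%) of neuroblast-like cells, against 1.46% and 1.34% (unthinned 6.39% and 4.20%) of microglia-like cells. The neuron markers in neuroblast-like cells summed to 8.90% and 4.87% of their level in neuron-like cells, whereas *Gad1* reached 42.4% and 27.8% and *Gad2* 70.5% and 50.3%.

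OPC-like cells, the dividing precursors of myelin-forming cells, held *Gad1* without a matching level of *Gad2* or *Slc32a1*. *Gad1* was 43.6 (34.8–53.9) and 29.3 (22.6–37.2) CPM there, 0.94 ± 0.19 log2 units above the mean of the other classes (adjusted p = 0.000639 by edgeR), next in order after neuroblast-like cells, which were higher than OPC-like cells (1.36 ± 0.22, adjusted p = 4.51e-05). *Gad2* was 8.82 (5.14–14.1) and 10.2 (6.46–15.3) CPM in the same cells, -1.64 ± 0.35, and so lower than the mean of the other classes, and *Slc32a1* was 3.11 and 6.20 CPM. After thinning, *Gad1* was found in 4.14% and 2.69% (unthinned 22.5% and 16.4%) of OPC-like cells and 0.780% and 0.931% (unthinned 3.37% and 2.34%) of microglia-like cells. Neuron markers in OPC-like cells summed to 7.09% and 5.46% of their level in neuron-like cells, while *Gad1* was 21.6% and 11.2%, *Gad2* 2.59% and 2.27% and *Slc32a1* 0.934% and 1.15% of the neuron level. For *Gad1*, OPC-like cells could not be separated from fibroblast-like cells, the next in order (1.11 ± 0.60, adjusted p = 0.215 by edgeR). In the remaining classes *Gad1* ran from 2.44 to 22.5 CPM and *Gad2* from 2.18 to 28.1 CPM, and no neighbours among them passed the test. In astrocyte-like cells *Gad1* was found in 1.23% and 1.60% (unthinned 3.84% and 3.59%) at 1000 UMIs, above the microglia-like cells in each library and below the 1.80% and 2.07% of endothelial-like cells.

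*Slc32a1* (ENSMUSG00000037771, chromosome 2, 158610767 to 158615748, plus strand) had the largest neuron contrast of the 9 genes. It stood at 333 (305–363) CPM in library 1 and 541 (501–583) CPM in library 2 in neuron-like cells, and the library intervals did not overlap. In neuroblast-like cells it was 47.9 (43.0–53.3) and 40.6 (33.8–48.5) CPM and in the remaining classes no more than 8.34 CPM. It was higher in neuron-like cells by 5.78 ± 0.18 log2 units (adjusted p = 1.02e-14) and in neuroblast-like cells by 2.30 ± 0.22, by edgeR. *Slc32a1* in neuroblast-like cells was 14.4% and 7.51% of the neuron level. This lay above the 8.90% and 4.87% that neuron markers reached there, though by less than for the decarboxylases. At 1000 UMIs it was found in 23.7% and 39.4% (unthinned 41.5% and 65.3%) of neuron-like, 6.82% and 5.37% (unthinned 22.4% and 20.0%) of neuroblast-like and 0.292% and 0.310% (unthinned 3.11% and 1.46%) of microglia-like cells. Among unthinned neuron-like cells 49.0% and 56.5% held a *Gad1* or *Gad2* UMI, and of these 62.3% and 77.7% also held *Slc32a1*. Among neuroblast-like cells 59.4% and 54.1% held a decarboxylase UMI, and of these 32.2% and 26.1% also held *Slc32a1*. Cells with a decarboxylase UMI were deeper, with medians of 4201 and 4102 UMIs against 1050 and 1342.5 in the other neuron-like cells, so these shares depend on depth, and their order between classes was not tested.

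A finer clustering divided the neuroblast-like class into clusters with unlike levels of the decarboxylases. Neuroblast-like cluster 10 (339 and 134 cells), led by *Stmn2*, *Dlx6os1* and *Dcx*, held 162 and 185 CPM of *Gad1*, 449 and 527 CPM of *Gad2* and 81.7 and 66.6 CPM of *Slc32a1*. The *Gad2* level of this cluster was above that of all neuron-like cells pooled in each library (341 and 449.9 CPM), though not above that of neuron subcluster 0, described next, in library 1 (479.8 CPM), and its *Slc32a1* level was below that of the pooled neuron-like cells. Neuroblast-like cluster 7 (446 and 146 cells), shallower, held 129 and 179.5 CPM of *Gad1*, 406 and 409 CPM of *Gad2* and 87.9 and 186 CPM of *Slc32a1*. The progenitor-like cluster 11 (303 and 151 cells), led by the division genes *Top2a* and *Mki67*, held 37.6 and 31.4 CPM of *Gad1*, 113 and 140.2 CPM of *Gad2* and 24.3 and 24.0 CPM of *Slc32a1*, below both neuroblast-like clusters in each library for all 3 genes. Ependymal-like cells (cluster 18, 84 and 64 cells), which line the ventricle and are marked by *Ccdc153* and *Tmem212*, held 41.8 and 20.1 CPM of *Gad1*, 52.6 and 49.3 CPM of *Gad2* and 21.7 and 14.6 CPM of *Slc32a1*. These finer levels are a description, with no test.

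**Figure D3:**
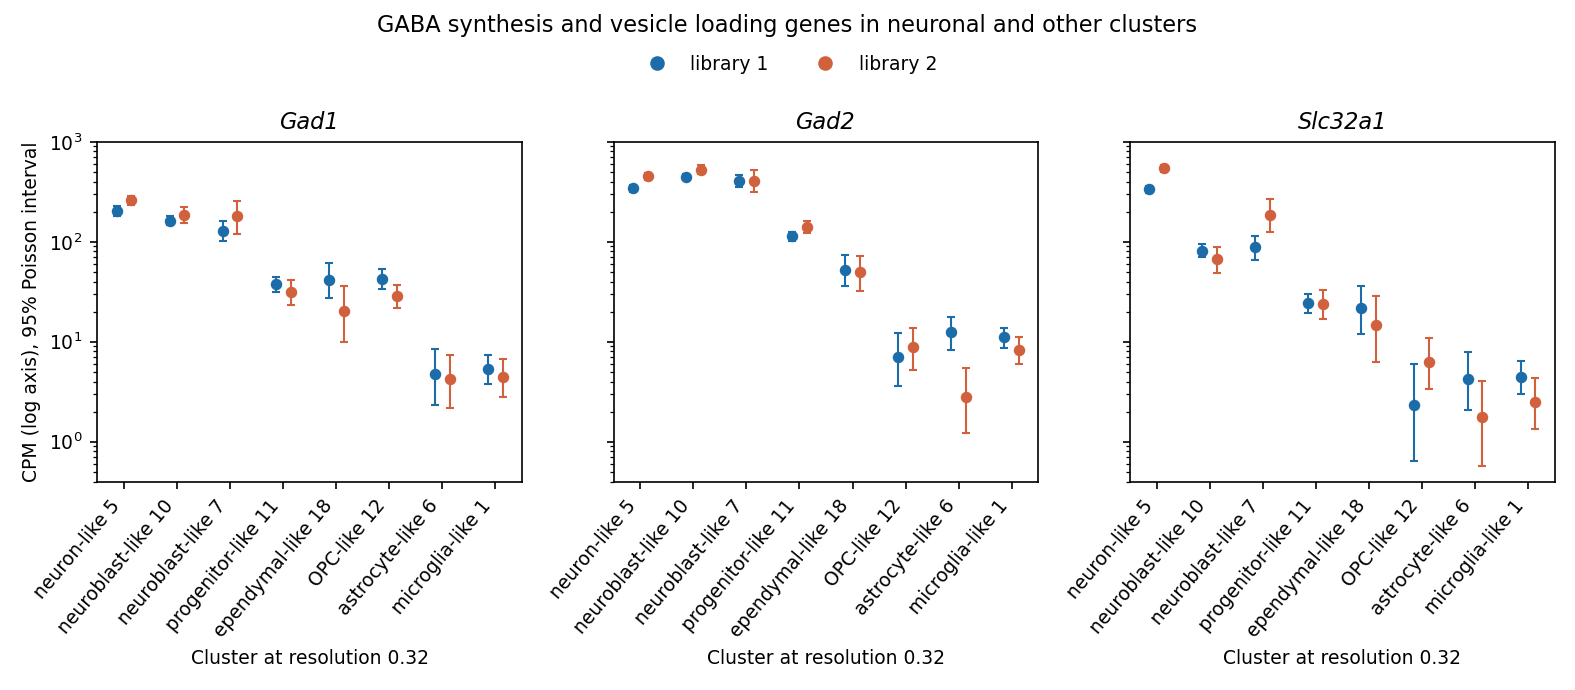
*Gad1*, *Gad2* and *Slc32a1* in CPM on a log axis in 8 clusters of the finer clustering, with exact Poisson 95% intervals and 1 point per library. The neuroblast-like clusters 10 and 7 lie near neuron-like cells for *Gad1* and *Gad2* and below them for *Slc32a1*, and the progenitor-like cluster 11 lies lower in all 3 panels.

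Neuron-like cells were clustered again without the 9 genes, giving 3 subclusters with at least 20 cells in each library. In them 7 of the 9 genes could be tested, and 8 of 21 contrasts passed, against 10.6% over all genes. By subcluster the counts were 4 of 7 in subcluster 0 (background 12.1%), 1 of 7 in subcluster 1 (4.57%) and 3 of 7 in subcluster 2 (15.3%). Subcluster 0 (158 and 134 cells), led by *Crabp1*, *Gpr6*, *Th* and *Penk*, held more of both decarboxylases, with *Gad1* at 276 and 314 CPM (1.57 ± 0.29, adjusted p = 0.000662) and *Gad2* at 479.8 and 514 CPM (1.60 ± 0.31, adjusted p = 0.000783), both by edgeR. Subcluster 1 (164 and 82 cells, medians of 750.5 and 917 UMIs), led by *C1ql3*, *Cck* and the vesicular glutamate transporter gene *Slc17a7*, held 148 and 154 CPM of *Gad2* and 188 and 279.7 CPM of *Gabbr2*, the latter above the other subclusters (1.98 ± 0.29, adjusted p = 8.62e-05 by edgeR). *Gabbr2* was 48.7 and 64.6 CPM in subcluster 0, below the others. Subcluster 2 (57 and 21 cells) was led by *C1qc* and *Slc1a2*, genes of microglia and astrocytes, and held less *Gad1* and *Slc32a1* and more *Slc6a11* (126 and 82.3 CPM, 2.03 ± 0.36, adjusted p = 0.000324 by edgeR). The 8 astrocyte markers summed to 5720 and 2296 CPM there, against 308 and 239 CPM in subcluster 0, where *Slc6a11* was 6.09 and 12.9 CPM. Their part in the *Slc6a11* value was not tested. Single libraries moved several of these values: without library 1 the log2 differences in subcluster 2 were -0.29 for *Gad1* and -0.73 for *Slc32a1*, without library 2 they were -1.84 and -2.58, and *Slc6a11* in subcluster 0 was -1.61 without library 1 against -2.61 ± 0.40, adjusted p = 6.57e-05 with both.

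At a finer subclustering, some kinds of neuron could be named, but several held under 20 cells in a library and the values carry no test. Cells like *Sst* and *Npy* interneurons (19 and 44 cells) held the highest decarboxylase levels among the named kinds, 519 and 394 CPM of *Gad1* and 837 and 701 CPM of *Gad2*. Their leading genes also included *Slc5a7* and *Th*, and 3 of 5 markers of other interneurons were raised, so kinds of interneuron may be mixed there. Cells like indirect-pathway projection neurons (76 and 46 cells), marked by *Drd2*, *Penk*, *Adora2a* and *Gpr6*, held 209 and 241 CPM of *Gad1* and 332 and 268 CPM of *Gad2*. In subcluster 2 (68 and 53 cells), 3 of 5 markers of direct-pathway projection neurons were raised and *Pdyn* was among its leading genes. By the naming rule it was direct-pathway-like, although the hemoglobin genes *Hba-a1*, *Hba-a2*, *Hbb-bs* and *Hbb-bt* led it. It held 130.3 and 154 CPM of *Gad1* and 336 and 274 CPM of *Gad2*. In the glutamatergic-like cells (12 and 10 cells) *Gad1* and *Gad2* were each 14.1 CPM in library 1, where that is 1 UMI, and 0 in library 2, and *Slc32a1* was 0 in both. The same cells held 379.7 and 455 CPM of *Gabbr2*, above the 36.5 and 96.7 CPM of the interneuron-like cells in each library.

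*Slc6a11* (ENSMUSG00000030307, chromosome 6, 114131241 to 114249952, plus strand) was highest in astrocyte-like cells. It stood at 458 (438–479) CPM in library 1 and 743 (717–769.7) CPM in library 2 there, and the intervals of the libraries did not overlap. The astrocyte subcluster with the highest level, subcluster 5, described below, held 15 cells in library 1 and 62 in library 2. Its part in the gap between the libraries was not tested. In the finer clustering the shallow cluster 0 (1064 and 625 cells) held 508 and 1319.6 CPM and the deeper cluster 6 (246 and 351 cells) 424 and 469 CPM. It was 5.34 ± 0.14 log2 units above the mean of the other classes (adjusted p = 5.39e-15 by edgeR). OPC-like cells came next with 50.8 (41.3–61.9) and 40.3 (32.5–49.5) CPM, lower by 4.07 ± 0.27, adjusted p = 1.34e-09 in the same edgeR fit, and 0.82 ± 0.22 above the mean of the other classes. From OPC-like cells down to oligodendrocyte-like cells (4.99 and 4.54 CPM) no neighbours passed the test. After thinning, *Slc6a11* was found in 33.1% and 42.7% (unthinned 49.8% and 69.4%) of astrocyte-like, 3.79% and 3.59% (unthinned 24.5% and 23.4%) of OPC-like and 1.07% and 0.827% (unthinned 4.80% and 3.91%) of microglia-like cells. Astrocyte markers in OPC-like cells summed to 7.97% and 5.85% of their level in astrocyte-like cells, and *Slc6a11* there was 11.1% and 5.43% of its astrocyte level, and the part of astrocyte RNA in that value was not tested. Ependymal-like cells of the finer clustering held 58.8 and 106 CPM.

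*Slc6a13* (ENSMUSG00000030108, chromosome 6, 121300227 to 121337733, plus strand) had the largest contrast of the 9 genes and was highest in fibroblast-like and next in mural-like cells. In fibroblast-like cells it stood at 1513 (1338–1705) CPM in library 1 and 1829 (1619–2058) CPM in library 2, from 269 and 276 UMIs in 34 and 22 cells, and the intervals overlap. Mural-like cells held 87.8 (74.2–103) and 70.6 (57.5–85.8) CPM and macrophage-like cells 10.0 (3.67–21.8) and 8.70 (2.37–22.3) CPM, from 6 and 4 UMIs. The log2 differences from the mean of the other classes were 9.31 ± 0.16 (adjusted p = 6.99e-17), 4.67 ± 0.19 and 1.57 ± 0.38 by edgeR. Neighbours in this order differed, fibroblast-like from mural-like cells by 4.17 ± 0.22, adjusted p = 2.55e-09, mural-like from macrophage-like cells by 2.79 ± 0.40, adjusted p = 2.78e-05, and macrophage-like from endothelial-like cells by 2.49 ± 0.64, adjusted p = 0.00598, all by edgeR. Fibroblast markers in mural-like cells summed to 3.62% and 3.11% of their level in fibroblast-like cells, and *Slc6a13* there was 5.80% and 3.86%. The part of fibroblast RNA in that value was not tested. Fibroblast markers in macrophage-like cells summed to 0.440% and 0.532% of their level in fibroblast-like cells, and *Slc6a13* there was 0.662% and 0.476%, and at 1000 UMIs no macrophage-like cell held it. In the other 7 classes it was at most 2.08 CPM. OPC-like cells held 0 UMIs in both libraries, where 3 UMIs would be 1.56 and 1.33 CPM. At 1000 UMIs *Slc6a13* was found in 77.3% and 77.3% (unthinned 70.6% and 95.5%) of 22 fibroblast-like cells in each library, in 11.9% and 8.99% (unthinned 27.2% and 25.3%) of mural-like cells and in 0 of 1026 and 0 of 967 microglia-like cells.

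Within mural-like cells *Slc6a13* was found in every subcluster but 1. The pericyte-like subcluster (92 and 70 cells) held 192 and 212 CPM, and the smooth-muscle-like subcluster (60 and 53 cells, deeper, with medians of 9692.5 and 9284 UMIs) held 0 UMIs in both libraries. Subcluster 3 (28 and 36 cells), in which endothelial markers were also raised, held 76.4 and 50.2 CPM, and the shallow, unnamed subcluster 1, led by *Mbp*, *Mobp* and *Cnp*, held 233 and 177 CPM. These values are descriptions. *Slc6a12*, the betaine and GABA carrier gene that lies next to *Slc6a13* on chromosome 6, from 121343076 to 121365775, was also highest in fibroblast-like cells (32.9 ± 9.10 CPM, mean ± SD, n = 2 libraries) and next in mural-like cells (4.07 ± 1.80 CPM).

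**Figure D4:**
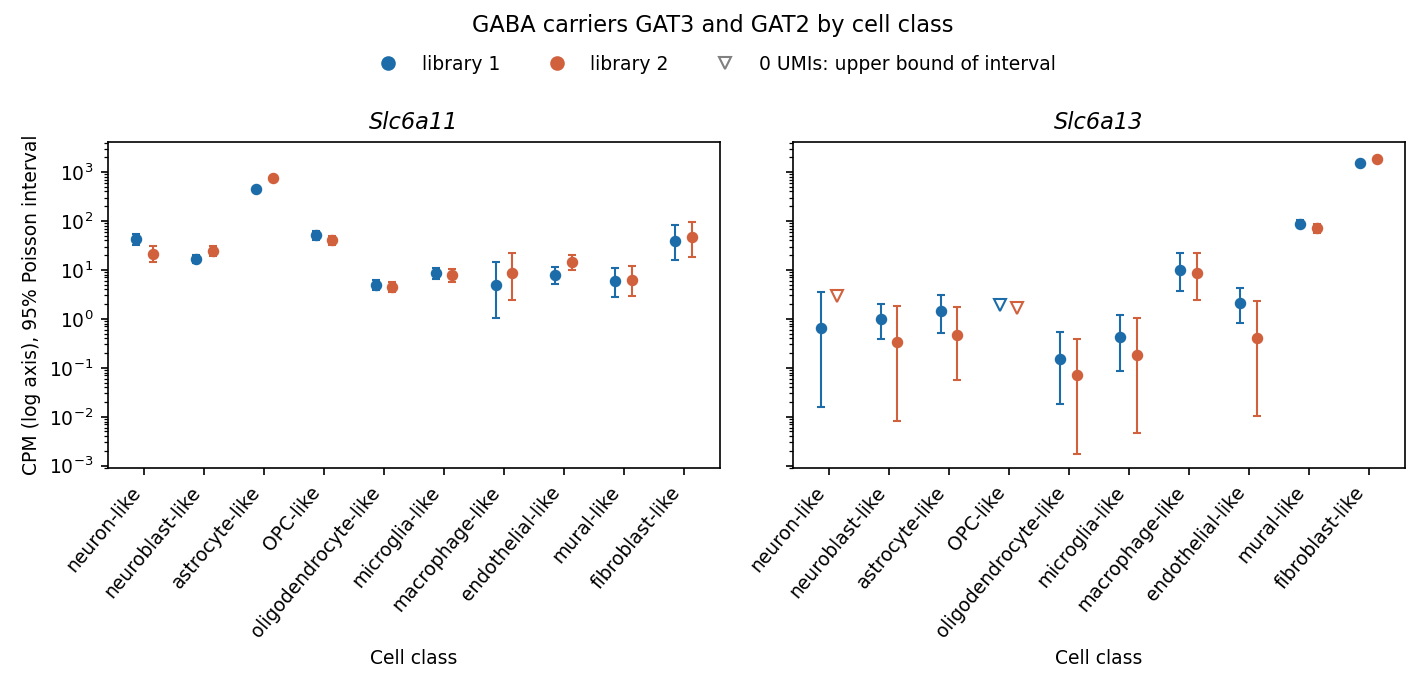
*Slc6a11* and *Slc6a13* in CPM on a log axis in the 10 classes, with exact Poisson 95% intervals and 1 point per library. Open triangles mark a class with 0 UMIs at the upper bound of its interval; *Slc6a11* peaks in astrocyte-like cells and *Slc6a13* in fibroblast-like and then mural-like cells.

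The genes of GABA breakdown were spread over neural cells and low in microglia-like cells. *Abat* (ENSMUSG00000057880, chromosome 16, 8513429 to 8621568, plus strand) stood at 116 (106–126) CPM in library 1 and 138 (127–149.6) CPM in library 2 in astrocyte-like cells and at 103 (88.1–121) and 124 (105–145) CPM in neuron-like cells, and the difference between these classes did not pass (0.43 ± 0.25, adjusted p = 0.162 by edgeR). Both were above the mean of the other classes, by 2.14 ± 0.17 and 1.67 ± 0.20. *Abat* was 118 and 53.0 CPM in fibroblast-like cells, from 21 and 8 UMIs, and 60.2 and 51.9 CPM in OPC-like cells, and neither passed. It was lowest in microglia-like cells, at 6.43 and 4.75 CPM (-2.30 ± 0.27). Within the oligodendrocyte lineage, the differentiating cluster 15 of the finer clustering held 88.0 and 82.8 CPM and the mature cluster 2 held 23.7 and 23.9 CPM, and ependymal-like cells held 111 and 108 CPM.

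*Aldh5a1* (ENSMUSG00000035936, chromosome 13, 24907579 to 24937661, minus strand) stood at 41.0 (32.4–51.1) CPM in library 1 and 44.3 (36.1–53.9) CPM in library 2 in OPC-like cells, 37.6 (32.0–44.0) and 47.2 (40.9–54.3) CPM in astrocyte-like cells and 30.0 (22.1–39.9) and 35.1 (25.5–47.1) CPM in neuron-like cells. In oligodendrocyte-like cells it was 24.6 (22.1–27.4) and 32.1 (29.3–35.2) CPM. All 4 classes were above the mean of the other classes, by 1.31 ± 0.18, 1.72 ± 0.16, 1.02 ± 0.20 and 1.52 ± 0.15, with adjusted p from 3.38e-08 to 0.000344 by edgeR. Of the neighbouring pairs only astrocyte-like against neuron-like cells (0.64 ± 0.22, adjusted p = 0.0233) and neuroblast-like against endothelial-like cells (0.67 ± 0.26, adjusted p = 0.0339) differed, by edgeR. It was 3.49 and 2.01 CPM in microglia-like cells.

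The receptor subunits had unlike distributions. *Gabbr1* (ENSMUSG00000024462, chromosome 17, 37045966 to 37075067, plus strand) was found in every class. It stood at 566 (529.8–605) CPM in library 1 and 691 (646–738) CPM in library 2 in neuron-like cells, 279.7 (264–296) and 359 (341–378) CPM in astrocyte-like cells, 299 (275–325) and 294 (272–317) CPM in OPC-like cells and 206 (198–214) and 238 (229.8–246) CPM in oligodendrocyte-like cells. These 4 classes were above the mean of the other classes, by 2.14 ± 0.13, 1.36 ± 0.13, 0.81 ± 0.14 and 1.22 ± 0.13, with adjusted p from 1.04e-10 to 0.000139 by edgeR. Neuron-like cells differed from astrocyte-like cells (0.71 ± 0.20, adjusted p = 0.00545 in the same edgeR fit), while astrocyte-like, OPC-like and oligodendrocyte-like cells could not be separated as neighbours. *Gabbr1* was still 81.1 and 89.7 CPM in microglia-like and 65.6 and 52.4 CPM in endothelial-like cells. The mature oligodendrocyte-like cluster 2 held 239 and 257 CPM and the differentiating cluster 15 held 99.7 and 129.9 CPM, the reverse of their order for *Abat*.

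*Gabbr2* (ENSMUSG00000039809, chromosome 4, 46662305 to 46991873, minus strand) was held by 3 classes. It stood at 95.8 (86.7–106) CPM in library 1 and 142 (131–154) CPM in library 2 in astrocyte-like cells, 65.8 (53.7–79.8) and 89.3 (73.6–107) CPM in those like neurons and 50.3 (40.8–61.4) and 58.1 (48.5–68.9) CPM in OPC-like cells, and every other class lay at or below 6.41 CPM. The log2 differences were 4.05 ± 0.18 (adjusted p = 9.24e-13), 3.07 ± 0.22 and 2.38 ± 0.22 by edgeR. Astrocyte-like cells differed from neuron-like cells (0.88 ± 0.24, adjusted p = 0.00470) and OPC-like cells from neuroblast-like cells (2.88 ± 0.30, adjusted p = 2.84e-07), in the same edgeR fit, while neuron-like and OPC-like cells could not be separated. Oligodendrocyte-like cells, which were above the mean for *Gabbr1*, held 1.79 and 1.40 CPM of *Gabbr2*, below the mean of the other classes (-2.03 ± 0.49). At 1000 UMIs *Gabbr1* was found in 18.2% and 21.4% (unthinned 89.1% and 91.1%) of oligodendrocyte-like cells and *Gabbr2* in 0.407% and 0.108% (unthinned 2.82% and 2.03%).

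Astrocyte-like cells were clustered again without the 9 genes, and the 5 subclusters that held 20 or more cells in both libraries were tested. Of 40 contrasts of 8 testable genes, 8 passed, against 19.8% over all genes, so that the share of calls was that of any gene. By subcluster the counts were 0 of 8 in subcluster 0 (background 33.8%), 2 of 8 in each of subclusters 1 (17%), 2 (36.7%), 3 (7.62%) and 4 (3.71%). Subcluster 2 (388 and 185 cells), led by *Hpca*, *Pcp4* and *Penk*, genes of striatal neurons, held 182 and 207 CPM of *Abat* (1.59 ± 0.25, adjusted p = 4.23e-07 by edgeR). Subcluster 4 (101 and 44 cells), led by *Myoc* and *Thbs4*, held 30.2 CPM of *Abat* in library 1 and none in library 2 (-2.17 ± 0.60, adjusted p = 0.0207) and 688 and 772 CPM of *Slc6a11* (0.81 ± 0.25, adjusted p = 0.0471), by edgeR. With library 1 left out that *Slc6a11* difference was 0.31 on the log2 scale, and with no block, by DESeq2, without TMM factors and with all genes of at least 1 UMI it did not pass. Without library 1 *Abat* was -5.65 in subcluster 4 and 1.57 in subcluster 1, and *Aldh5a1* was 0.33 in subcluster 2. The remaining calls were *Abat* (0.69 ± 0.24, adjusted p = 0.0382) and *Gad2* (lower) in subcluster 1, *Aldh5a1* (0.77 ± 0.31, adjusted p = 0.0422) in subcluster 2, and *Gad1* and *Gad2* (higher) in subcluster 3. Subcluster 3 (170 and 96 cells) was led by *C1qa* and *Mag*, and microglia markers summed to 2521 and 1047 CPM and oligodendrocyte markers to 16392 and 2199 CPM there, against 333 and 177 and 2496 and 998 CPM in subcluster 0, and their part in its *Gad1* and *Gad2* values was not tested.

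The astrocyte subcluster with the highest *Slc6a11* had the lowest level of *Crym*, the gene by which the study divided astrocytes. Subcluster 5, led by *Igsf1*, *Agt* and *Gria1*, held 15 cells in library 1 and 62 in library 2, too few for the test. It held 2104 and 3033 CPM of *Slc6a11*, against 486 and 798 CPM in subcluster 0 and 423 and 471 CPM in the *Crym*-led subcluster 1. Its *Crym* level was 51.7 and 11.2 CPM, against 1414 and 1774 CPM in subcluster 1. That level came from 3 cells in each library. They were 20.0% and 4.84% of its cells, against 16.8% and 13.6% with *Crym* in subcluster 4, so its share was not the lowest in library 1. It also held 224 and 201 CPM of *Gabbr2* and 189.7 and 232 CPM of *Abat*. Over the other subclusters *Slc6a11* lay between 188 CPM, in subcluster 3 of library 1, and 798 CPM, in subcluster 0 of library 2.

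The study's threshold for *Crym*, a natural log value above 0.25, gave 505 and 435 *Crym*+ and 823 and 541 *Crym*- cells, and taking every cell with at least 1 *Crym* UMI gave the same result, so that a deeper cell was more likely to count as *Crym*+. Of the 9 genes, 5 were detected in enough cells to be tested, and 1 passed, against 4.21% of 6057 genes. *Slc6a11* was 379 and 480.3 CPM in *Crym*+ and 543 and 1074 CPM in *Crym*- cells, lower in *Crym*+ cells in both libraries, with a log2 difference of -0.88 ± 0.13 (adjusted p = 0.00245 by edgeR). The share of cells with a *Slc6a11* UMI was 28.6% and 34.3% of *Crym*+ and 36.6% and 50% of *Crym*- cells at 1000 UMIs, but without thinning it was higher in *Crym*+ cells, at 54.7% and 72.0% against 46.9% and 67.3%. The difference in level was smaller when subcluster 5 was left out, with 374 and 453 CPM against 502 and 649 CPM and a log2 difference of -0.51 (adjusted p = 3.51e-09 by edgeR). *Gabbr2* went the other way, with 119 and 155 CPM in *Crym*+ and 70.8 and 126 CPM in *Crym*- cells (0.46 ± 0.12, adjusted p = 0.0569 by edgeR), which did not pass, although it did without subcluster 5 (0.61, adjusted p = 2.08e-06 by edgeR) and under 6 other alternatives, its adjusted p reaching 0.999 by DESeq2. It was 0.29 without library 1 and 0.74 without library 2. *Gabbr1* was 275 and 365 against 285 and 351 CPM (-0.02 ± 0.09), *Abat* 121 and 141 against 110.1 and 135 CPM (0.07 ± 0.10) and *Aldh5a1* 37.4 and 45.1 against 37.8 and 49.9 CPM (-0.11 ± 0.15), and none of these passed. *Crym*+ cells were deeper, with medians of 2433 and 5218 UMIs against 1461 and 1971. The *Slc6a11* call was lost by DESeq2 (adjusted p = 0.288) and when the block was dropped (adjusted p = 0.853), and its size was -1.16 without library 1 and -0.52 without library 2. With each library and subcluster as a block it was -0.54 (adjusted p = 1.11e-07 by edgeR). Subclusters of a library then count as separate pairs although they come from 1 suspension, so this p does not measure the spread between libraries. Over all alternatives the adjusted p of *Slc6a11*, by edgeR or DESeq2, ran from 1.78e-17 to 0.853. The single-library values of *Slc6a11* lie further from -0.88 than the SE of 0.13. Those of *Gabbr2* lie further from 0.46 than the SE of 0.12. The edgeR fit borrows spread across genes, so the SE and adjusted p values of this comparison do not measure the spread between the libraries.

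**Figure D5:**
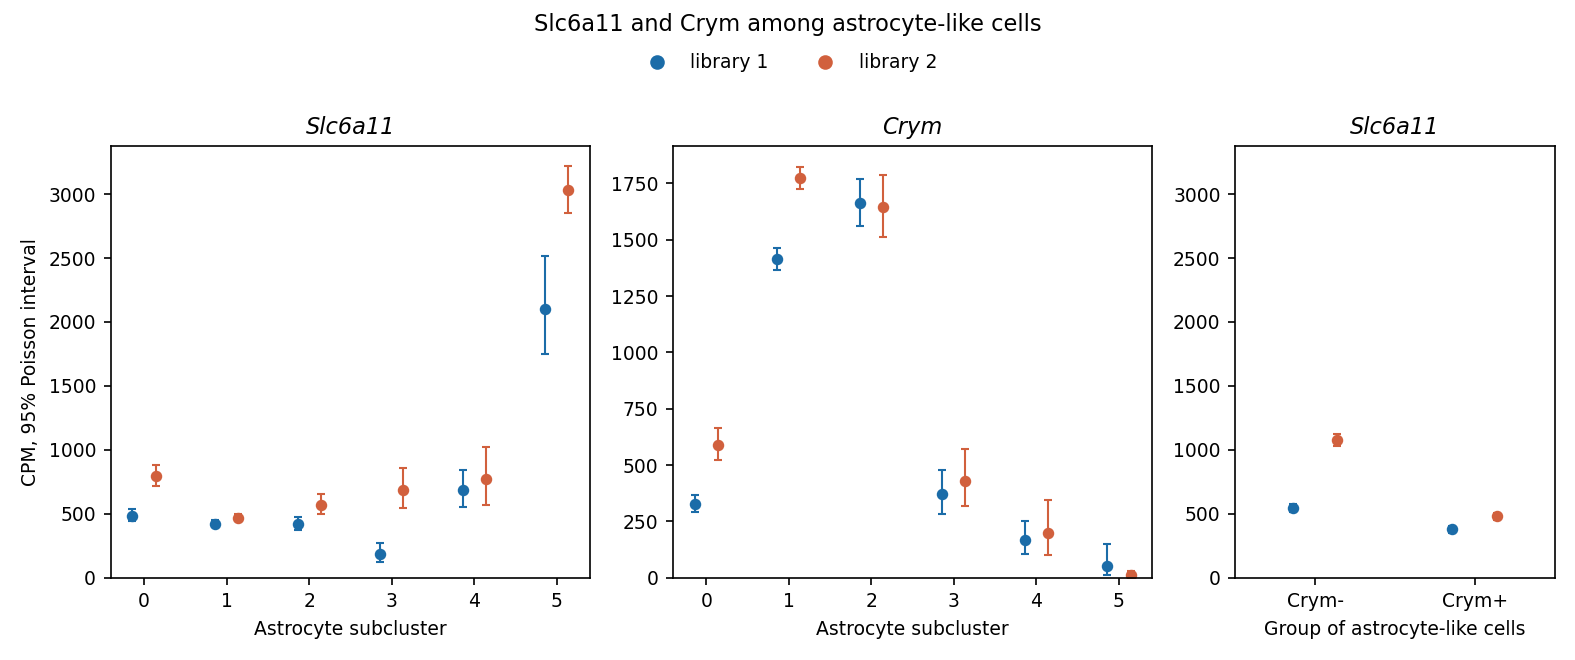
*Slc6a11* and *Crym* in CPM in 6 astrocyte subclusters, and *Slc6a11* in *Crym*- and *Crym*+ astrocyte-like cells, with exact Poisson 95% intervals and 1 point per library; axes start at 0 and the first and last panel share a scale. Subcluster 5 has the highest *Slc6a11* (2104 and 3033 CPM) and the lowest *Crym*, and *Crym*+ cells lie below *Crym*- cells in each library.

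Over the 20 sums of 10 classes in 2 libraries, the genes whose pattern was most like each of the 9 were found by Pearson's r of log2(CPM + 10), as a description. The sums of a library share its RNA and depth, and any gene bound to the same class gives a high r. For *Gad1* these were *Myt1l* (r = 0.98), *Usp29* and *Sez6*, for *Gad2* *Dlx6* (r = 0.98), *Smim18* and *Celsr3*, and for *Slc32a1* *Cacng2* (r = 0.99), *Rgs8* and *Celf6*. *Dlx6*, a homeobox gene of the developing striatum and its interneurons, was the nearest to *Gad2*. For *Slc6a11* they were *Cldn10* (r = 0.97), *Slc25a18* and *Ntsr2*, all leading genes or carriers of astrocytes, and for *Slc6a13* *Pcolce* (r = 0.99), *Tfap2b* and *Ptgfr*. For *Abat* they were *Rab36* (r = 0.91), *Rab30* and *Hspa4l*, for *Aldh5a1* *Lrrc4b* (r = 0.96), *Cadm2* and *Tmem63b*, for *Gabbr1* *Fam234b* (r = 0.95), *Slc22a17* and *Pclo* and for *Gabbr2* *Gpr162* (r = 0.97), *Shisa9* and *Hhipl1*. The highest r was lowest for *Abat*.

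Other genes of GABA handling were counted as lists, beside the share called (background) and the median log2 difference over all genes. Of the further carriers, the taurine carrier gene *Slc6a6* was highest in endothelial-like cells (1371 ± 357 CPM, mean ± SD, n = 2, here and below; log2 difference 3.92 ± 0.14). Of 6 genes of the route that forms GABA from putrescine, 5 were higher and none lower in astrocyte-like cells (backgrounds 26.7% and 22.4%). Their median was 1.57 against -0.12 over all genes. Among them were the acetyltransferase gene *Sat1* (2.14 ± 0.16) and *Aldh1a1* (2.24 ± 0.20), an aldehyde dehydrogenase gene that was higher still in fibroblast-like cells (482 ± 189 CPM), and the largest contrast was that of the monoamine oxidase gene *Maob* (60.7 ± 5.16 CPM, 3.49 ± 0.15), named after its values were seen. *Maoa*, the other monoamine oxidase gene, was highest in endothelial-like cells (275 ± 74.2 CPM). The ornithine decarboxylase gene *Odc1*, which makes putrescine, was highest in neuroblast-like cells (334 ± 77.3 CPM, 2.82 ± 0.11) and not called in astrocyte-like cells. In neuron-like cells 0 of these 6 were higher and 4 were lower (background 26.4% for each direction, median -1.22 against -0.18).

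Of 7 genes of precursor supply and of the reduction of succinic semialdehyde, 4 were higher and 1 lower in astrocyte-like cells (backgrounds 26.7% and 22.4%, median 2.21 against -0.12). Those higher included the glutamine synthetase gene *Glul* (2956 ± 178 CPM, 2.42 ± 0.17), the glutamate dehydrogenase gene *Glud1* (484 ± 55.0 CPM) and the glutamine transporter gene *Slc38a3* (244 ± 29.5 CPM). In neuron-like cells 2 were higher and 4 lower (background 26.4% for each direction). Of 7 auxiliary and effector genes of the GABA-B receptor, 5 were higher and 2 lower in neuron-like cells (background 26.4% for each direction, median 3.49 against -0.18). In OPC-like cells 6 were higher, at mean levels from 2.33 to 30.6 CPM, and 1 was lower (backgrounds 26.1% and 18.4%, median 1.44 against -0.04). None was higher and 1 was lower in astrocyte-like cells (backgrounds 26.7% and 22.4%), the class with the highest *Gabbr2*. The auxiliary subunit gene *Kctd16* was 227 ± 17.1 CPM in neuron-like cells (6.52 ± 0.19) and 9.69 ± 1.97 CPM in OPC-like cells (1.44 ± 0.33). *Kctd12*, of the same family, was highest in microglia-like cells (879 ± 118 CPM, 5.20 ± 0.10), where *Gabbr2* was near 0. Among the genes of pyridoxal phosphate, the cofactor of glutamate decarboxylase and GABA transaminase, the phosphatase gene *Pdxp* was higher in neuron-like cells (131 ± 0.485 CPM, 2.93 ± 0.17), and the kinase gene *Pdxk* was highest in fibroblast-like cells (173 ± 66.1 CPM).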

How the data were processed

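Counts of unique molecular identifiers (UMIs) per gene and cell barcode were deposited by the authors for 2 libraries of mouse striatum. The file headers and the submitters' processing notes name Cell Ranger 4.0 and mm10, and the study's methods name another version of the same program. The 9 genes, the gene lists and the tests were chosen with earlier results of these data known. All 9 genes are named, with at most 4 genes of each list (those highest in any class) and, for each of the 9, the 3 genes most like it. *Maob* is an exception, named beyond this rule after its values were seen. The values of some genes of the lists are not reported here.

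Barcodes with fewer than 300 detected genes were dropped, as were genes seen in 3 cells or fewer. Scrublet (scanpy 1.11.5, expected rate 6%) marked 81 and 158 doublets, which were removed. Cells of both libraries were clustered with Seurat 5.3.0 (2000 variable genes, 30 principal components, resolution 0.08, finer 0.32, subclusters 0.3 and 0.6 on 15 components). The clustering left out 36 genes, among them the 9, the lists and *Crym*. The authors' cell annotation was not used here, so classes were rebuilt and may differ from those of the study. A cluster was named where at least 3 markers of a list were raised 2-fold, with 10 CPM added, and 1 was among its 50 leading genes, thresholds chosen after the counts were seen.

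Counts were summed per library and class, since cells are not replicates, and compared with edgeR 4.0.16 (R 4.3.3) by the quasi-likelihood test with TMM factors, a prior count of 2 and an adjusted p threshold of 0.05. The library was a block, because all classes of a library come from 1 cell suspension. A class was set against the equally weighted mean of the other classes on the log2 scale, so a log2 difference can be positive where the CPM lies below the arithmetic mean of the others, and TMM factors can order classes otherwise than CPM does. Only classes or subclusters with at least 20 cells in each library were tested. For *Crym*, genes found in at least 10% of cells of a group were tested. The study compared single cells, which is not repeated here. It reported *Slc6a11* as higher in *Crym*+ than in *Crym*- astrocytes, from single cells of its own set of annotated astrocytes. The level found here, pooled over rebuilt astrocyte-like cells of 2 libraries, went the opposite way, a call that DESeq2 lost. Without thinning, the share of cells with a *Slc6a11* UMI went the study's way, with *Crym*+ cells being deeper. The measures and the sets of cells are therefore unlike. The study also reported more GAT3 in *Crym*+ astrocytes of the central striatum than in dorsolateral astrocytes, which was not examined here. Intervals are exact, at 95%. For a count of 0 the text gives the CPM of 3 UMIs per library, which lies below the upper end of the interval drawn in the figure. Depth limits low genes to the precision of these intervals. Positions are from GENCODE vM21 on GRCm38 and promoter windows from RefSeq. The alternatives were DESeq2 1.42.0, library sizes without TMM, no block, all genes with a UMI, thinned counts, other cell filters, doublets kept, the 36 genes kept in the clustering, finer subclusters, 1 library left out, and, added after the values were seen, mixed subclusters or single astrocyte subclusters left out. The fit was first checked on simulated data for the class, neuron subcluster and *Crym* comparisons. It was not simulated for neighbouring classes or astrocyte subclusters.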

Additional observations from a re-analysis of the deposited data

How the results depend on the processing

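Calls across the 10 classes held best: 25 of 90 contrasts were higher, the alternatives gave between 25 and 29, with 37 of 117 for more classes at resolution 0.32, and pairs of neighbouring classes that differed numbered 15 to 23 against 18. Leaving out subclusters led by markers of another class gave 25 and 20. With no replicate block, the calls fell to 5 of 21 in neuron subclusters and to 3 of 40 in astrocyte subclusters, against 8 in each with the block, and finer astrocyte subclusters gave 14. In *Crym*+ against *Crym*- astrocytes 1 of 5 genes passed. The count was 0 by DESeq2 and with no replicate block. It was 2, *Gabbr2* being added, with library sizes alone, with all genes of at least 1 UMI, with a replicate block for each library and subcluster, which treats subclusters of 1 suspension as replicates, with cells of at least 500 genes, with cells under 20% mitochondrial UMIs, with doublets kept and with subcluster 5 left out. The log2 difference of *Gabbr1* there, which did not pass, turned from -0.02 to 0.052 with all genes of at least 1 UMI and to 0.0084 under 20% mitochondrial UMIs, and was between -0.052 and 0.056 with 1 library. That of *Abat*, which did not pass either, turned from 0.07 to -0.0037 in thinned cells. Of the log2 differences recomputed, 223 kept their direction and, where an adjusted p was given, their side of the threshold. Values with 1 library left out carry no test. They were counted among the 223 if they lay within the SD of the 2 such values, a lenient rule. A further 18 no longer passed, 7 passed newly, and 17 values without a test moved by more than that SD. With 1 library left out no test was possible, since no degrees of freedom among samples remain, and those values carry no p. The cause of these shifts was not tested. Low depth limits *Aldh5a1*, *Slc6a13* outside fibroblast-like and mural-like cells, and fibroblast-like cells, of which 34 and 22 were found. Keeping in the clustering the 36 genes otherwise left out, limiting mitochondrial UMIs or keeping doublets merged fibroblast-like into mural-like cells, so *Slc6a13* has no fibroblast value there.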

Other observations

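The unnamed cluster (456 and 242 cells), whose cells held a median of 20.3% and 28.1% mitochondrial UMIs, belonged to no comparison. It held 13.2 and 2.88 CPM of *Gad1*, 7.77 and 14.4 CPM of *Slc32a1*, 10.9 and 10.1 CPM of *Slc6a11*, 24.9 and 24.5 CPM of *Abat* and 292 and 257 CPM of *Gabbr1*. The erythroid-like cells (86 and 11 cells) held 15.4 and 0 CPM of *Gad2* and 28.0 and 67.9 CPM of *Gabbr1*.

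In the finer clustering OPC-like cells fell into clusters 12 (195 and 245 cells) and 16 (107 and 97 cells, shallower). *Gad1* was 42.9 and 28.7 CPM in the first and 49.0 and 34.4 CPM in the second, and *Gabbr2* was 50.5 and 58.4 CPM in the first and 49.0 and 54.1 CPM in the second. *Slc6a11* was 47.0 and 38.0 CPM in the first and 80.2 and 64.0 CPM in the second. These values have no test.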
